A study of Homo sapiens with 6 samples.

Results

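The heterogeneous nuclear ribonucleoproteins (hnRNPs) and other splicing regulators were examined in A549 cells with and without APEX1 overexpression. The group held 49 genes, chosen by symbol, among the 32192 genes of the count table, and every one was found there and in the table of FPKM (fragments scaled for the length of the transcript and the depth of the library). It comprised 15 hnRNP genes, 3 genes of the PTB family, 2 Tra2 genes, 8 genes of tissue-restricted regulator families, 4 RBM genes, 4 other RNA-binding regulators, 7 core splice-site and spliceosome factors, 2 SRm coactivators, 3 kinases of SR proteins and 1 helicase. The rule was a list of symbols and held no threshold on a measured value, but the list was drawn up with earlier results of these data known.

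A549 is an established human line of lung adenocarcinoma cells. APEX1 encodes an endonuclease of base excision repair that also regulates transcription factors by redox. 3 libraries came from cells transfected with APEX1 cloned into the pIRES-hrGFP-1a vector, which fuses a FLAG tag to the 3′ end of the insert (APEX1-OE), and 3 from cells that received the control plasmid (Ctrl). Transfection was transient, all 6 libraries were of the same line, and the mRNA libraries were selected for polyadenylated RNA and kept strand. The study's methods say in general that experiments were repeated, and no source used here ties the 3 libraries of a group to separate cultures, so the p-values below measure the spread between these libraries, which may be technical. These are bulk libraries, in which fewer cells expressing a gene and less RNA per cell cannot be told apart.

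Splicing regulators decide which exons stay in an mRNA. U2AF2 reads the polypyrimidine tract and U2AF1 the AG at the 3′ splice site, SF1 holds the branch point until SF3B1 and the U2 particle replace it, and SNRNP70 belongs to the U1 particle at the 5′ splice site. hnRNPs such as HNRNPA1 and PTBP1 often repress exons, while SR proteins, Tra2 proteins and SRm coactivators often promote them, and CLK and SRPK kinases phosphorylate SR proteins. Many of these genes control their own mRNA and that of their paralogs through exons that lead to decay of the transcript. The study asked whether APEX1 changes alternative splicing, and the comparison here is of the mRNA levels of the proteins that carry splicing out.

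The libraries held 28131955 to 41009197 counts on genes, and APEX1 itself was measured at 617.5, 680.3 and 768.2 FPKM in APEX1-OE against 128.8, 126.3 and 123.8 in Ctrl (log2 fold change 2.42, SE 0.171, adjusted p = 0.00809 in edgeR's quasi-likelihood fit, Benjamini-Hochberg). Of the epithelial markers, KRT8 lay at 2558 to 3562 FPKM and KRT18 at 2011 to 2838, while CDH1 lay at 4.52 to 10.7 and EPCAM at 0.18 to 0.52. PTPRC, CD3E, PECAM1, VWF, CDH5 and COL1A2 had 0 to 10 counts in a library, DCN, COL1A1 and CD68 0.04 to 1.49 FPKM. Among the neuronal markers ELAVL3 and STMN2 had at most 0.04 FPKM, RBFOX3 1.58 to 3.00 and SNAP25 8.95 to 23.8. The libraries did not separate by group. Along the first principal component of log2 CPM (counts scaled to the depth of the library, not to length), which took 72.6% of the variance over all tested genes, APEX1-OE replicate 1 lay with Ctrl replicates 1 and 2 (called the first set below), and APEX1-OE replicates 2 and 3 lay with Ctrl replicate 3 (the second set). These sets were defined from the data, so that 1 APEX1-OE library lies in the first set and 1 Ctrl library in the second.

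Sequences are shown for the members whose reading turns most on sequence. The 3 PTB proteins are paralogs that bind pyrimidine-rich RNA, yet their mRNAs differ in G and C. The measured levels moved between libraries along with that difference. The stretches below, read from GENCODE release 44 transcripts on GRCh38, cover the same 40 codons of each coding sequence, with every G and C in capitals. They were picked as the stretch where the residues of PTBP2 and PTBP3 match those of PTBP1 most closely. Their identity therefore does not describe the whole proteins.
PTBP1: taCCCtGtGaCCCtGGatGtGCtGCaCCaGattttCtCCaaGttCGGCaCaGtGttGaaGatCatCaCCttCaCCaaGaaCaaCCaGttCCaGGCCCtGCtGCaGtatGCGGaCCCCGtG
PTBP2: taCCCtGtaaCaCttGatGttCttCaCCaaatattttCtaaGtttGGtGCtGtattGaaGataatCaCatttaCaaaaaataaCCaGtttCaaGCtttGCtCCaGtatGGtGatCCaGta
PTBP3: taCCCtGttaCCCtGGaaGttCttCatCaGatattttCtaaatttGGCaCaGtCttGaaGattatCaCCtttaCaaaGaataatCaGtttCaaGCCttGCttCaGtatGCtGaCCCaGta

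The PTBP1 stretch (coding bases 577 to 696, gene at chr19:797075-812327, plus strand) held 65 G or C among 120 bases. The PTBP2 stretch (coding bases 568 to 687, gene at chr1:96721665-96823738, plus strand) encoded the same residue as PTBP1 in 38 of 40 codons but held 41 G or C. The PTBP3 stretch (coding bases 487 to 606, gene at chr9:112217716-112333664, minus strand) encoded the same residue in 39 of 40 codons and held 45 G or C. Most of the gap sat at the third codon position, where 35 of the PTBP1, 11 of the PTBP2 and 16 of the PTBP3 codons ended in G or C.

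U2AF1 is shown because its count could not be read like the others. GRCh38 holds a second copy of the gene at chr21:6484623-6499248 (ENSG00000275895, minus strand), which GENCODE marks as an artifactual duplication, besides the U2AF1 gene at chr21:43092956-43107570 on the minus strand. The first 90 coding bases are identical in both, and capitals mark identical bases.
U2AF1: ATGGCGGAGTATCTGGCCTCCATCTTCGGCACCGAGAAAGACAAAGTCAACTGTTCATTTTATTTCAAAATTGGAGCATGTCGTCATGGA

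Of the 796 windows of 150 bases in the U2AF1 transcript, 784 (98.5%) occurred letter for letter in the transcript of the second copy, and the authors counted uniquely mapped reads. The second copy had 0 to 7 counts in a library. U2AF1 stood at 2.36, 2.85 and 2.74 FPKM in APEX1-OE and 2.34, 2.09 and 2.54 in Ctrl, and its partner U2AF2 at 169.0, 136.4 and 106.3 in APEX1-OE and 141.8, 142.5 and 107.7 in Ctrl. The mean FPKM of U2AF2 over the 6 libraries was thus 53.9 times that of U2AF1, and the U2AF1 value is uncertain as a level. HNRNPA1 had 23.5% of its windows in transcripts of other genes, most often the pseudogene HNRNPA1P7, and the 20 HNRNPA1P pseudogene rows together held 182 to 497 counts per library. HNRNPA3 had 7.66%, SRRM1 5.72%, HNRNPL 2.61% and HNRNPC 0.763%, and the other 43 members had none. Exons of other genes overlapped 59.9% of the HNRNPA3, 43.2% of the SRPK1, 27.6% of the RBM5 and 26.2% of the HNRNPL transcript, and whether counting used strand is not given in the sources.

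The splicing regulators were among the more abundant mRNAs of these cells. On the FPKM scale 3 members had a mean of at least 100 over the 6 libraries, 26 lay between 10 and 100, 15 between 1 and 10 and 5 under 1. Thus 29 of 49 members reached 10 FPKM, against 13.4% of all 31951 genes in the FPKM table. That table includes genes too low to be tested. FPKM corrects for length but not for the share of G and C, along with which levels moved between libraries, as described below. Comparisons of level between genes that differ in that share are therefore approximate.

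By the mean over the 6 libraries the most abundant member was HNRNPK, which binds C-rich RNA, at 112.1, 171.7 and 181.6 FPKM in APEX1-OE and 137.5, 139.7 and 183.2 in Ctrl. The group means were 155 ± 37.6 and 153 ± 25.8 FPKM (SD, n = 3 each). The levels of the 2 groups overlapped throughout, and both SDs exceeded the difference of the means. U2AF2 followed at 137 ± 31.3 FPKM in APEX1-OE and 131 ± 19.9 in Ctrl, and SNRNP70 at 107 ± 17.6 and 104 ± 14.8 (n = 3 each). The order at the top depended on the library. U2AF2 was above HNRNPK in APEX1-OE replicate 1 and Ctrl replicates 1 and 2 and below it in the other 3 libraries, and SNRNP70, at 127 FPKM, was also above HNRNPK in APEX1-OE replicate 1. U2AF2 was above SNRNP70 in each of the 6 libraries, whereas the libraries of SNRNP70 and of HNRNPA2B1, next in the order, overlapped.

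Below them stood HNRNPA2B1, HNRNPA1, the RNA helicase DDX5, HNRNPC, which binds uridine tracts, and PTBP1. DDX5 was at 51.1, 104 and 115 FPKM in APEX1-OE and 70.8, 70.4 and 107 in Ctrl. HNRNPC was at 65.5, 82.1 and 90.6 against 85.2, 83.4 and 88.5 FPKM, and PTBP1 at 92.9, 83.9 and 73.3 against 84.8, 85.8 and 71.1 FPKM. On the FPKM scale the DDX5 libraries thus spread more widely within each group than those of HNRNPC and PTBP1. The SDs in APEX1-OE and Ctrl were 34.1 and 21.2 FPKM for DDX5, 12.8 and 2.63 for HNRNPC, and 9.82 and 8.18 for PTBP1. Within the other roles the highest were KHDRBS1 (Sam68) among the other RNA-binding regulators, RBM39, TRA2B, CELF1, SRRM2 and SRPK1. Their mean FPKM in Ctrl was 32.9 ± 7.62 for KHDRBS1, 17.6 ± 5.87 for RBM39, 15.4 ± 3.91 for TRA2B, 9.52 ± 1.70 for CELF1, 32.4 ± 1.36 for SRRM2 and 6.59 ± 2.46 for SRPK1 (SD, n = 3).

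**Figure D1:**
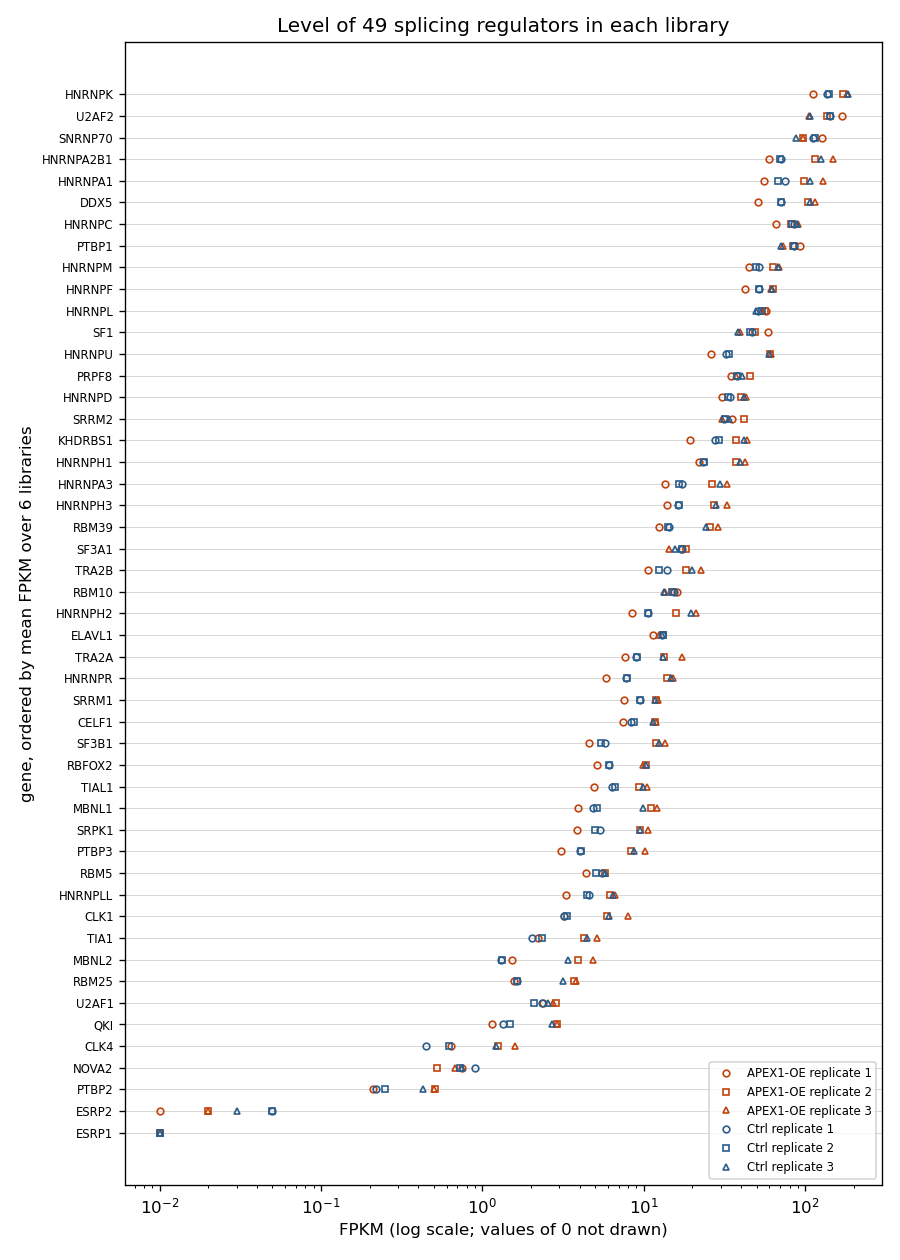
FPKM on a log axis for the 49 splicing regulators, ordered by mean, with 1 symbol per library (orange APEX1-OE, blue Ctrl, shape by replicate). Levels run from HNRNPK above 100 FPKM down to ESRP1 and ESRP2 at 0.05 FPKM or less, and the 2 colours overlap for most genes.

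The regulators known from single tissues stood at the bottom of this order. ESRP1 and ESRP2, which promote the epithelial forms of many transcripts, were close to the limit of detection. ESRP1 had 0, 2 and 1 counts in APEX1-OE and 0, 2 and 1 in Ctrl. In the libraries with 0 counts, APEX1-OE replicate 1 and Ctrl replicate 1, that allows up to 0.103 and 0.107 CPM, taking 3 counts of the library total and covering counting error only. ESRP2 had 1, 4 and 4 counts in APEX1-OE and 6, 8 and 6 in Ctrl. Neither passed the filter on low counts, so they were not tested, and 47 of the 49 members were. Among the epithelial markers measured in the same libraries, EPCAM was also under 1 FPKM, whereas the keratins were abundant.

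PTBP2, the neuronal PTB protein, was at 0.21, 0.51 and 0.50 FPKM in APEX1-OE and 0.22, 0.25 and 0.43 in Ctrl. NOVA2, a neuronal regulator that binds YCAY motifs, was at 0.75, 0.52 and 0.68 FPKM in APEX1-OE and 0.90, 0.73 and 0.75 in Ctrl. CLK4 was at 0.64, 1.25 and 1.60 against 0.45, 0.62 and 1.22 FPKM. All 3 were detected in every library, and the groups overlapped for each. By contrast the muscleblind genes MBNL1 and MBNL2, RBFOX2, CELF1 and QKI, whose families are best known from muscle and brain, were expressed at 1.14 to 12.1 FPKM over all libraries.

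With the condition as the only term of the fit, 0 of the 47 tested members passed an adjusted p of 0.05 between APEX1-OE and Ctrl (edgeR's quasi-likelihood test, Benjamini-Hochberg over 16971 genes). Over all genes 0.00589% were called, which is APEX1 alone. No member had an unadjusted p under 0.05 either, against 0.695% of all genes, and DESeq2 and limma-voom gave the same counts of 0 and 0. The paper, which also used edgeR, reports more differentially expressed genes than APEX1 alone. It does not name the edgeR test or the adjustment of p. Of the 47 tested members 1, U2AF1, had CPM values of the groups that did not overlap, against 3.39% of all tested genes. The untested ESRP2, with the counts given above, also had groups that did not overlap. The log2 fold changes ran from -0.28 to 0.74 with standard errors of 0.160 to 0.457 (median 0.268), and the 95% intervals of all 47 included 0. The fit put 38 members higher and 9 lower in APEX1-OE, with a median log2 fold change of 0.14 against 0.03 over all genes. That median rested on single libraries, with 0.29, 0.10 and 0.04 when APEX1-OE replicate 1, 2 or 3 was left out and 0.08, 0.08 and 0.25 when Ctrl replicate 1, 2 or 3 was. 29 members had a fold change of less than 0.2 on the log2 scale in either direction.

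U2AF1 had 6.11, 6.24 and 5.84 CPM in APEX1-OE and 5.58, 5.07 and 5.50 in Ctrl, a log2 fold change of 0.17 with a 95% interval from -0.31 to 0.65. On the FPKM scale its groups overlapped. The largest estimate belonged to MBNL2, which had 10.3, 22.1 and 26.6 CPM in APEX1-OE and 8.07, 8.26 and 18.9 in Ctrl. The lowest APEX1-OE library lay below the highest Ctrl library, and the log2 fold change was 0.74 with an interval from -0.31 to 1.80 (unadjusted p = 0.143, adjusted p = 1.00 by edgeR's quasi-likelihood test). CLK4 followed with 0.57 (SE 0.401), RBM25 with 0.45 (SE 0.354), MBNL1 with 0.41 (SE 0.396) and PTBP2 with 0.41 (SE 0.360). CLK4 is a kinase of SR proteins and RBM25 binds exonic enhancers and U1-associated factors. None of these 5 could be told from 0 at this spread. Their size also rested on single libraries. Leaving out 1 library gave 0.46 to 1.27 for MBNL2, 0.30 to 1.01 for CLK4, 0.29 to 0.77 for RBM25, 0.19 to 0.76 for MBNL1 and 0.22 to 0.71 for PTBP2, with the highest value of each without Ctrl replicate 3. The lowest was without APEX1-OE replicate 3 for MBNL2 and MBNL1 and without Ctrl replicate 1 for CLK4, RBM25 and PTBP2.

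At the other end NOVA2 had 8.12, 4.76 and 6.02 CPM in APEX1-OE and 8.85, 7.35 and 6.78 in Ctrl, with a log2 fold change of -0.28 (SE 0.271), which was -0.52 without APEX1-OE replicate 1 and -0.12 without APEX1-OE replicate 2. HNRNPC had 567, 601 and 644 CPM in APEX1-OE and 677, 673 and 641 in Ctrl, with -0.14 (SE 0.160). All the values of HNRNPC lay within a narrow band, and 1 APEX1-OE library exceeded 1 Ctrl library. ELAVL1, which stabilises AU-rich mRNAs, had -0.10 (SE 0.173), RBM5, a regulator of exons in apoptosis genes, -0.07 (SE 0.187), and KHDRBS1 -0.02 (SE 0.265). The interval of HNRNPC was the narrowest of the 47. It ran from -0.50 to 0.23 for HNRNPC and, for the abundant HNRNPK and U2AF2, from -0.45 to 0.42 and from -0.57 to 0.72, all on the log2 scale.

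By role, the medians of the log2 fold change were 0.11 for the 15 hnRNPs (12 higher, 3 lower), 0.32 for the 3 PTB genes (3 higher), 0.20 for the Tra2 pair (both higher), 0.21 for 6 tested genes of tissue-restricted families (5 higher) and 0.17 for the RBM genes (3 of 4 higher). They were 0.03 for the other RNA-binding regulators (2 of 4 higher), 0.07 for the core factors (5 of 7 higher), 0.07 for SRRM1 and SRRM2 (both higher), 0.40 for the 3 kinases (3 higher) and 0.08 for DDX5. No role held a called gene. With the library set as a second term, as described below, the medians were -0.09 for the hnRNPs, -0.01 for the Tra2 pair, -0.04 for the tissue-restricted families, -0.10 for the other RNA-binding regulators and -0.17 for DDX5, all of the opposite sign. They stayed above 0 for the PTB genes (0.10), the RBM genes (0.09), the core factors (0.17), the SRm coactivators (0.04) and the kinases (0.13). The rest of the splicing machinery was read from 3 other lists. Among 55 spliceosome components outside the group 0 were called (28 higher, 27 lower, median 0.01), among 37 tested splicing regulators of 45 listed 0 were called (27 higher, 10 lower, median 0.09), and among 12 SR family genes 0 were called (10 higher, 2 lower, median 0.11). In all 3 lists the count at an unadjusted p under 0.05 was also 0.

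**Figure D2:**
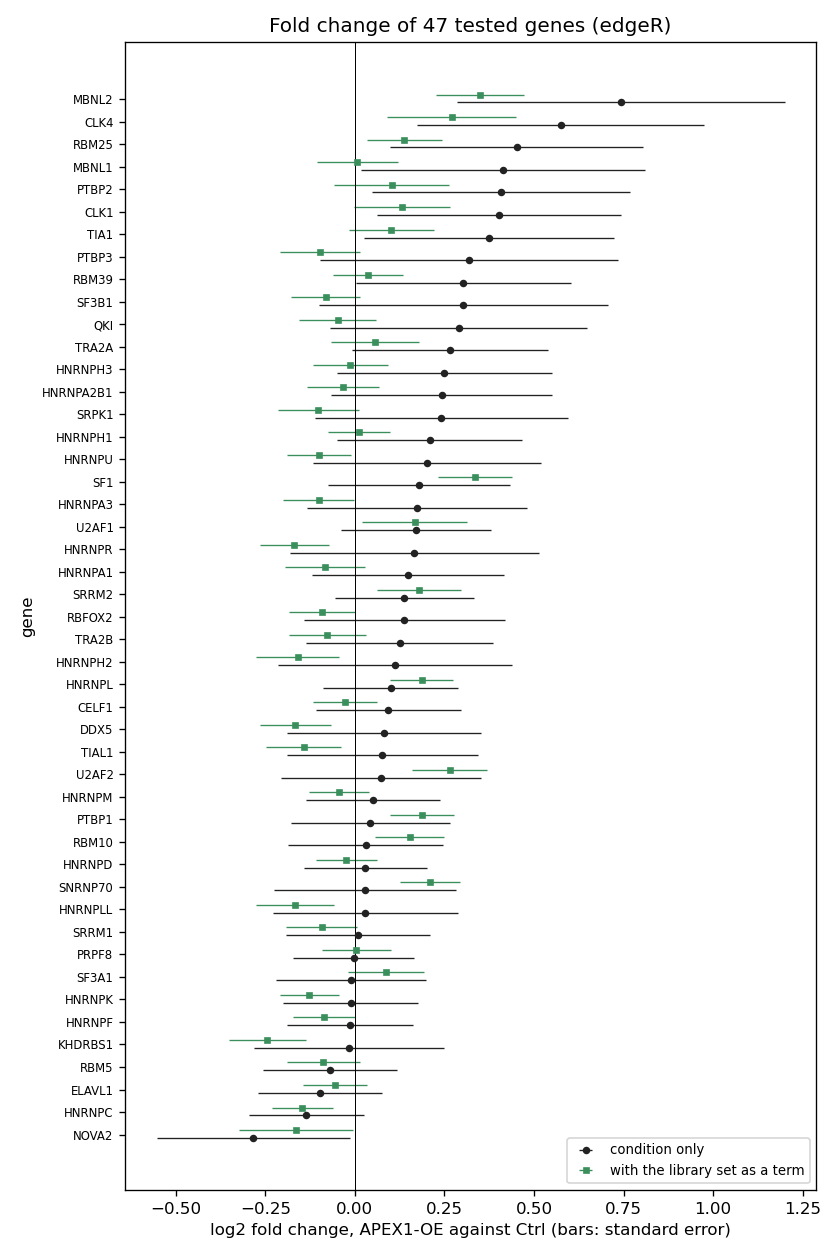
log2 fold change of APEX1-OE against Ctrl for the 47 tested genes, with bars for the standard error. Circles are from the fit with the condition alone and squares from the fit with the library set as a second term, where the standard errors are shorter (median 0.103 against 0.268) and the median fold change is -0.03 in place of 0.14.

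The members varied widely between libraries of 1 group, with a median within-group SD of 0.36 on the log2 CPM scale. The gap between the lowest and the highest library ran from 0.193 on the log2 CPM scale for HNRNPD to 1.66 for MBNL2, with a median of 0.869 over the members and 0.750 over all tested genes. For 33 of 47 members (70.2%) the 3 highest libraries were the second set, APEX1-OE replicates 2 and 3 and Ctrl replicate 3, against 35.5% of all genes. For 8 members (17.0%) the same 3 libraries were the lowest, against 30.9% of all genes, and 6 members had neither order. The members are among the genes from which the sets were defined, so these counts are a description.

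SF3B1, the subunit of the U2 particle that contacts the branch point, showed the first order plainly. It had 51.5 CPM in APEX1-OE replicate 1 but 113 and 125 in replicates 2 and 3, and 59.8 and 57.1 CPM in Ctrl replicates 1 and 2 but 118 in replicate 3. PTBP3 had 34.9, 79.5 and 94.5 CPM in APEX1-OE and 41.7, 43.2 and 82.7 in Ctrl. MBNL1 had 36.4, 86.9 and 92.1 CPM in APEX1-OE and 41, 44 and 76.8 in Ctrl. In each of these 3 genes every library of the second set exceeded every library of the first by more than the libraries of a set differed among themselves. SRPK1 kept the same order, with 27.3, 56.8 and 62.2 CPM in APEX1-OE and 34.7, 33.2 and 55.9 in Ctrl, and so did RBM39, with 52.7, 91.2 and 99.6 against 55.4, 55.8 and 86.2.

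U2AF2, SF1 and SNRNP70 showed the opposite order. U2AF2 had 708, 483 and 366 CPM in APEX1-OE and 545, 558 and 378 in Ctrl. SF1 had 336, 239 and 187 CPM in APEX1-OE and 247, 243 and 184 in Ctrl, and SNRNP70 had 291, 186 and 182 against 234, 245 and 167. The second set was thus lowest for these 3 factors of splice-site recognition. PTBP1, RBM10, NOVA2, ELAVL1 and SF3A1 were the other 5 members with that order. HNRNPD and RBM5 stayed close to level, with 130, 142 and 148 CPM in APEX1-OE and 133, 131 and 147 in Ctrl for HNRNPD, and 31.6, 35.5 and 34.1 against 36.9, 34.4 and 34.9 for RBM5. HNRNPD was still highest in the second set, while RBM5 had neither order.

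The order followed the base composition of the transcripts. GC content of the members' transcripts ran from 35.1% for HNRNPR to 63.4% for SNRNP70, with a median of 42.2% against 49.6% over all tested genes. Of the 28 members under 45% GC, 27 (96.4%) were highest in the second set, against 75.2% of the 5755 tested genes under 45%, and the exception was HNRNPC. Of the 19 members at or above 45% GC, 6 (31.6%) were highest and 8 (42.1%) lowest in the second set, against 14.8% and 46.4% of all such genes. The 6 were HNRNPF, HNRNPM, KHDRBS1, SRRM1, CELF1 and RBFOX2.

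**Figure D3:**
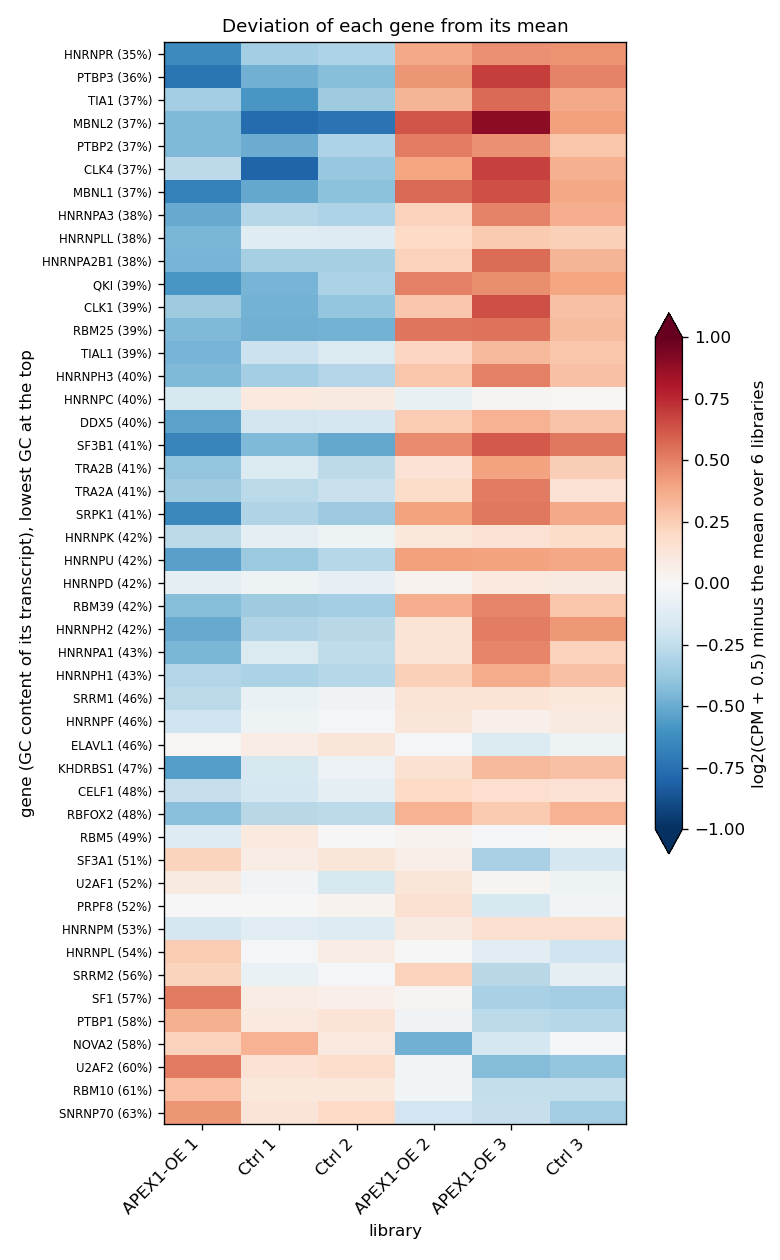
Deviation of log2(CPM + 0.5) from its mean over the 6 libraries for the 47 tested genes, in rows from lowest to highest GC content of the transcript, with libraries in columns and colours limited to 1 in either direction. The upper rows are blue in APEX1-OE replicate 1 and Ctrl replicates 1 and 2 and red in the other 3 libraries, and most rows at the bottom have the reverse.

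The same relation stood inside each group, where the condition does not differ. Over the 47 members, the difference of log2 CPM between APEX1-OE replicates 2 and 1 ran from -0.71 to 1.24 and had a Pearson r of -0.88 and a Spearman rho of -0.80 with GC content (over all genes r = -0.76). For APEX1-OE replicates 3 and 1 r was -0.90, and for Ctrl replicates 3 and 1 it was -0.87 with rho of -0.85. Between Ctrl replicates 1 and 2, both of the first set, the differences were within -0.25 and 0.43 and r was -0.29. No pair of libraries lay closer (chi-square per degree of freedom 4.20, against 30.6 for APEX1-OE replicates 2 and 3 of the second set). In those APEX1-OE replicates HNRNPA2B1 (38.4% GC) had 496 and 624 CPM and U2AF2 (60.5% GC) 483 and 366. HNRNPR (35.1% GC) and SNRNP70 (63.4% GC) changed less. The correlation with GC content was not computed for that pair. These are descriptions across genes of the same libraries, and genes are not independent replicates. Whether RNA quality, library preparation or culture moved with the sets was not tested.

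**Figure D4:**
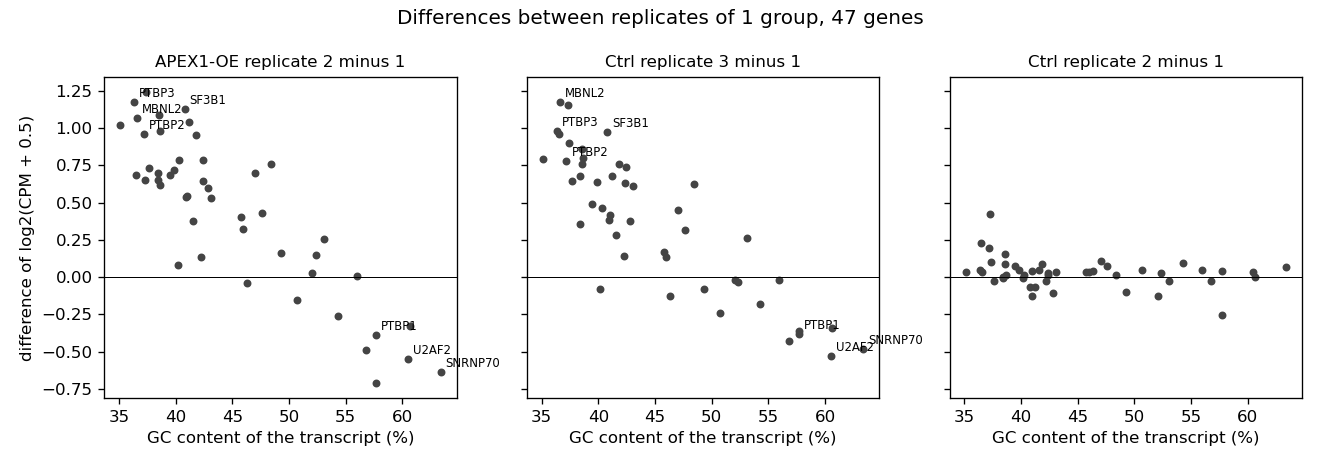
Difference of log2(CPM + 0.5) between 2 replicates of 1 group against the GC content of the transcript, 1 point per gene (47 genes). Points fall from upper left to lower right when a library of the second set is set against one of the first (left and middle panels), and lie near 0 for Ctrl replicates 2 and 1 (right panel).

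The condition was therefore also compared inside the sets. In the first set APEX1-OE replicate 1 was set against the mean of Ctrl replicates 1 and 2, and in the second the mean of APEX1-OE replicates 2 and 3 against Ctrl replicate 3. The median difference of the members was -0.11 on the log2 CPM scale in the first set and 0.04 in the second, against -0.01 and 0.05 over all genes. 29 of 47 members (61.7%) had the same sign in both, 15 higher and 14 lower in APEX1-OE, against 55.5% of all genes. MBNL2 was higher by 0.31 and 0.35 in the 2 sets, SF1 by 0.46 and 0.21, and U2AF2 by 0.36 and 0.15. KHDRBS1 differed by -0.44 and -0.05, and HNRNPC by -0.25 and -0.04. MBNL1 changed sign, with -0.22 and 0.22. In each set either APEX1-OE or Ctrl had a single library, so each of these differences rests on that library. The comparison did not hold GC content constant. SNRNP70, highest in GC at 63.4%, differed by 0.28 and 0.14, and HNRNPR, lowest at 35.1%, by -0.32 and -0.03. MBNL2, at 36.6% GC, went the other way. Whether GC content accounts for the differences was not tested.

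With the library set as a second term of the edgeR fit, 0 of 47 members were called, against 0.0236% of all genes. The lowest adjusted p was 0.356 (edgeR's quasi-likelihood test, Benjamini-Hochberg). 6 members had an unadjusted p under 0.05 (12.8%), against 11.6% of all genes, a share near the background. They were SF1 (log2 fold change 0.34, SE 0.103), MBNL2 (0.35, SE 0.123), U2AF2 (0.26, SE 0.104), SNRNP70 (0.21, SE 0.0848) and HNRNPL (0.19, SE 0.0871), estimated higher, and KHDRBS1 (-0.25, SE 0.108), estimated lower. The median standard error of the members was 0.103 in this fit, and 20 of the 47 estimates were above 0. The set term was chosen from the same counts, so these p-values do not account for that choice.

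When an offset for GC content and transcript length was added to that fit, 0 members were called, against 0.130% of all genes, and 6 had an unadjusted p under 0.05, against 12.1% of all genes. MBNL2 (0.36, SE 0.0936, adjusted p = 0.153 by edgeR), SF1 (0.26, SE 0.0684), HNRNPL (0.13, SE 0.0582) and KHDRBS1 (-0.17, SE 0.0700) were among them again. RBM25 (0.19, SE 0.0791) and HNRNPR (-0.17, SE 0.0614) were the others. U2AF2 and SNRNP70, the members with 60.5% and 63.4% GC, had estimates of 0.12 (SE 0.0715) and 0.05 (SE 0.0592) in this fit. MBNL2 was thus the member with the largest estimate in each of these 3 edgeR fits, and it passed the adjusted threshold in none of them.

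Paralogs often replace each other on the same exons, so the balance within 12 pairs was compared as the log2 ratio of FPKM + 0.1 in each library. SRRM1 and SRRM2 were paired as SRm coactivators and are not paralogs. With 3 libraries against 3 the exact permutation test allows no p under 0.1, and after adjustment over the 12 pairs the lowest p was 0.4. 3 pairs reached that limit. MBNL1 over MBNL2 had a log2 ratio of 1.31, 1.49 and 1.31 in APEX1-OE and 1.81, 1.87 and 1.53 in Ctrl, a difference of -0.37 (exact two-sided permutation p = 0.1). TIA1 over TIAL1, a pair that binds U-rich intron starts, had -1.11, -1.12 and -1 in APEX1-OE and -1.60, -1.45 and -1.14 in Ctrl, a difference of 0.32 (exact two-sided permutation p = 0.1). The groups did not overlap in either pair, and the Ctrl library nearest to APEX1-OE was replicate 3 in both. ESRP1 over ESRP2 was the third, and rests on the few counts given above.

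The PTB balance differed more between the library sets than between the groups. The ratio of FPKM + 0.1 of PTBP1 over PTBP3 ran from 7.18 in APEX1-OE replicate 3 to 29.3 in APEX1-OE replicate 1. Its log2 was 4.87, 3.32 and 2.84 in APEX1-OE and 4.37, 4.36 and 3.02 in Ctrl. PTBP1 over PTBP2 ran from 122 to 300 in the same 2 libraries. In both ratios the second set was lower in each group, and the stretches printed above show the GC difference between the partners. Whether that GC difference accounts for the shift was not tested. The difference between the groups was -0.24 for PTBP1 over PTBP3 and -0.26 for PTBP1 over PTBP2 (exact two-sided permutation p = 0.9 for each). That test leaves the sets out. In the first set the log2 ratio of PTBP1 over PTBP3 was 4.87 in APEX1-OE against 4.37 and 4.36 in Ctrl. In the second set the Ctrl value lay between the APEX1-OE values. Other pairs spanned less across the 6 libraries, but some also moved with the sets. The log2 ratio of HNRNPL over HNRNPLL ran from 2.92 to 4.07 and was lower in the second set in each group. SRRM1 over SRRM2, from -2.21 to -1.31, and RBM5 over RBM10, from -1.87 to -1.19, were higher there in each group. The steadiest ran from -0.23 to 0.07 for HNRNPA1 over HNRNPA2B1 and from -0.63 to -0.38 for TRA2A over TRA2B.

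**Figure D5:**
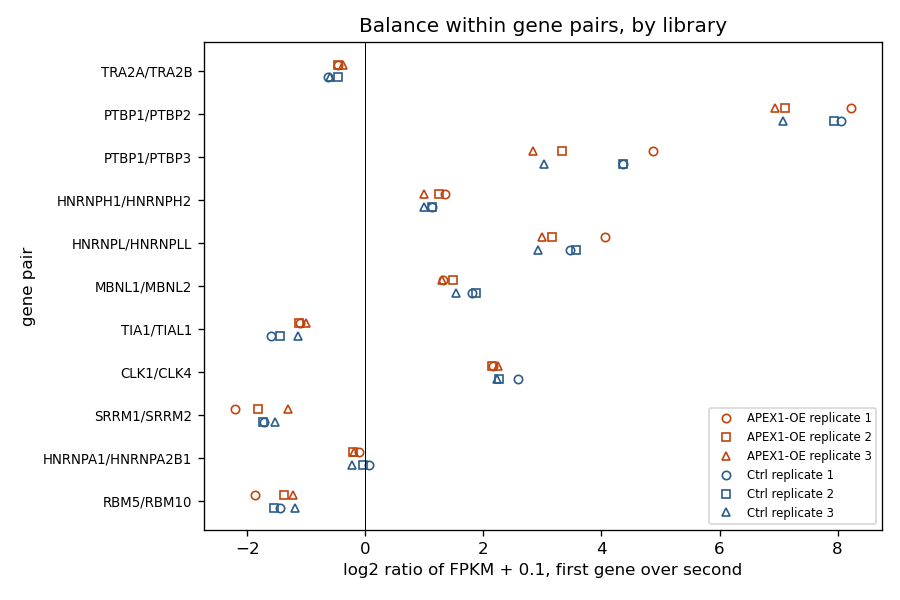
log2 ratio of FPKM + 0.1 within 11 gene pairs, first gene over second, with 1 symbol per library (orange APEX1-OE, blue Ctrl, shape by replicate). MBNL1 over MBNL2 and TIA1 over TIAL1 have groups that do not overlap, while PTBP1 over PTBP3 spreads from 2.84 to 4.87 within APEX1-OE.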

How the data were processed

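Per the paper's methods, the authors removed reads holding over 2 N bases or shorter than 16 nt after adaptor trimming (FASTX-Toolkit), and mapped them to GRCh38 by TopHat2 with up to 4 mismatches. Unique alignments gave both deposited tables, raw counts per gene and FPKM (2 decimals). The sources used here do not give the counting tool, annotation or strand setting. The members and lists were chosen with earlier results of these data known.

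Genes passed filterByExpr at a minimum count of 10 and total of 15. After TMM scaling all were tested with edgeR 4.0.16 (quasi-likelihood, robust) in R 4.3.3, with Benjamini-Hochberg adjustment at 0.05. CPM used TMM library sizes, with 0.5 added before logs. Alternatives used DESeq2 1.42.0, limma 3.58.1, RLE factors, no filter, other terms and leaving out each library. GC content (98.7% of tested genes), coordinates and sequences came from GENCODE release 44, 1 transcript per gene. Members were named by rule if their groups did not overlap or if they had the 5 highest or 5 lowest fold changes. The 5 widest and 5 narrowest ranges, the most abundant of each role and those under 1 FPKM were also named. Values by library are given for these except RBM25, ELAVL1, KHDRBS1, TRA2B, CELF1 and SRRM2. Members outside these rules were named after their values were seen. No 2 libraries agreed within sampling noise (lowest chi-square per degree of freedom 4.20).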

Additional observations from a re-analysis of the deposited data

How the results depend on the processing

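In all 15 other fits 0 members were called. At an unadjusted p under 0.05, 4 of 47 members passed when APEX1-OE replicate 1 was left out, against 7.61% of all genes. Without Ctrl replicate 3 it was 2 of 47, against 3.47%. With no count filter it was 1 of 49, against 1.95%, and with limma on log2(FPKM + 1) 1 of 49, against 1.50%. In the other fits without a second term it was 0. The median log2 fold change of the members lay between 0.04 and 0.29 when 1 library was left out. Replicate numbers did not pair the libraries throughout. The correlations of deviations were 0.61 and 0.70 for numbers 1 and 3 but -0.52 for number 2. With a replicate block 0 members were called, and 2 of 47 had an unadjusted p under 0.05, against 3.31% of all genes. In that fit 2 genes were called in all. Over all genes 1 was called, but 10 without the filter, 4 with the library set as a term, 22 with the GC and length offset besides, and 0 when APEX1-OE replicate 2 or 3 or Ctrl replicate 1 or 2 was left out. Of 319 alternative values 11 turned sign, none of a called estimate, and the cause was not tested. The members' median became -0.03 with the library set as a term. ELAVL1 became 0.0273 with the offset, and CLK1 over CLK4 became 0.0415 with a pseudocount of 1. Leaving out 1 library gave -0.20 to 0.18 for KHDRBS1, -0.83 to 0.18 for PTBP1 over PTBP3, -0.24 to 0.30 for HNRNPL over HNRNPLL, -0.36 to 0.0946 for SRRM1 over SRRM2 and -0.23 to 0.10 for RBM5 over RBM10. The spread between libraries (median standard error 0.268) and, for ESRP1 and ESRP2, the depth limited what could be detected.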
